A study of Sus scrofa with 2 samples.

Results

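Connexins are the proteins of gap junctions, and the connexin genes examined here were GJA1, GJA3, GJA4, GJA5, GJB1, GJB2, GJC1 and GJD2, a set of 8 chosen by name for their part in electrical coupling between cells. Of these, 7 had an identifier with that symbol among the 25880 identifiers of the deposited table (14857 had a symbol at all). GJB2 had none and was not analysed here. The cells were PSI, a clone of smooth muscle cells from the ileum of a pig (Sus scrofa), cultured in DMEM supplemented with serum and antibiotics. RNA-seq libraries were made in duplicate from this single clone, giving 1 group of 2 libraries with no tissue, treated or other-cell group. The labels name no separate cultures, so an SD here is the spread of a pair of libraries and may be purely technical. They give no genotype, age or time in culture.

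Connexin proteins assemble in rings into hemichannels, and hemichannels of neighbouring cells dock to form channels that pass ions and small molecules. In the gut wall such channels let depolarisation spread from cell to cell, and GJA1 is the connexin best known from intestinal smooth muscle. Other members are known mainly from other tissues: GJA4 and GJA5 from blood vessels, GJB1 from liver and myelinating glia, GJB2 from epithelia and the inner ear, GJA3 from the lens and GJD2 from the electrical synapses of neurons. GJC1 is known from the heart's conduction system and from vascular and visceral muscle.

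The values are FPKM, fragments per kilobase of gene model scaled to the library total, a scale on which genes of different length are comparable. The totals that the values were divided by came out at 35176565 in replicate 1 and 32217729 in replicate 2. A read in a gene model of 1 kb was therefore worth 0.0284 and 0.0310 FPKM, respectively. Reads given below are the smallest numbers that produce the deposited values, so the true number may be a multiple of them. Their intervals cover counting error only. Detected means at least 1 FPKM in each library.

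Among the 17 connexins with an identifier in the table, of 21 looked for, nearly all of the summed FPKM was that of GJA1 and GJC1. Among the measured members 2 of 7 were detected, whereas 40.9% of all identifiers and 61.5% of identifiers with a symbol were. The others lay under 0.1 FPKM. Of these, 3 were listed at 0 in both libraries, 1 was at 0 in a single library and 1 had at least 1 read in each. Listing at 0 needs care in this table, since 4 of 45 cytosolic ribosomal protein genes picked by symbol were also under 1 FPKM and 2 of them, RPL29 and RPS27A, were listed at 0.

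GJA1, which encodes the gap junction protein CX43, was measured at 201.8 FPKM (22704 reads) in replicate 1 and 197.8 (20377 reads) in replicate 2. Both libraries were high, and the values lay close together. The mean was 199.8 ± 2.86 FPKM (SD, n = 2), rank 232 of all 25880 identifiers and rank 184 among identifiers with a symbol, of which 98.8% had a lower mean. Counting error gave 95% Poisson intervals of 199.2 to 204.5 FPKM in replicate 1 and 195.1 to 200.5 in replicate 2. The identifier of GJA1 was ENSSSCG00000004241. RefSeq annotates this protein-coding gene, in the Sscrofa11.1 build, on chromosome 1 from 40988818 to 41002129, with no overlapping gene.

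GJC1, which encodes cx45, was measured at 30.1 FPKM (4910 reads) in replicate 1 and 30.4 (4551 reads) in replicate 2. This was the only other member above 1 FPKM, and the libraries again differed little. The mean was 30.3 ± 0.255 FPKM (SD, n = 2), rank 2204 of 25880, and 87.2% of identifiers with a symbol had a lower mean. Its 95% Poisson intervals were 29.2 to 30.9 FPKM in replicate 1 and 29.6 to 31.3 in replicate 2. GJC1 (ENSSSCG00000021306) is annotated on chromosome 12 from 18526060 to 18560221, also with no overlapping gene.

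**Figure D1:**
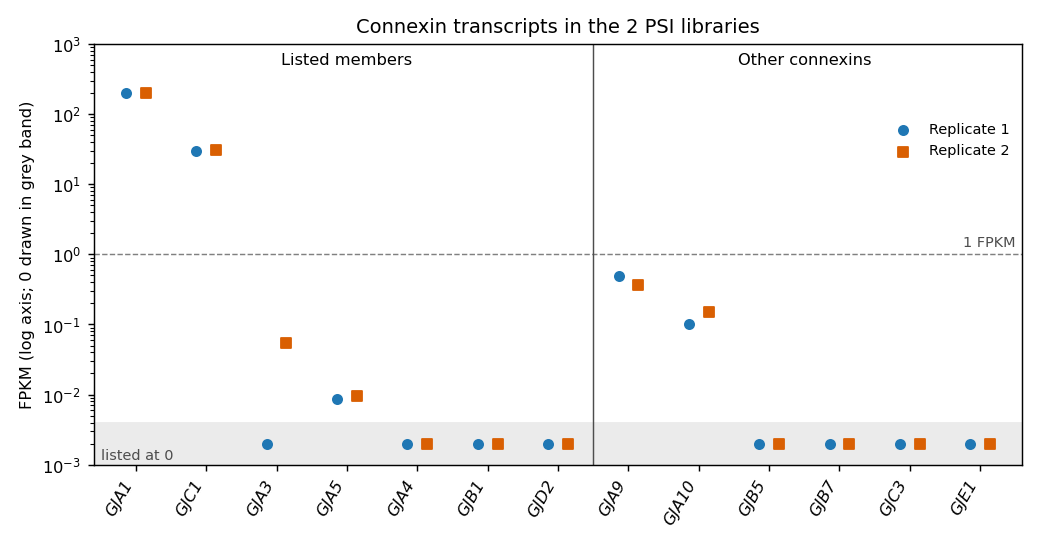
FPKM of the connexins reported here (vertical log axis) in replicate 1 (blue circles) and replicate 2 (orange squares), with the listed members on the left and other connexins on the right. Points in the grey band are listed at 0. GJA1 lies near 200 and GJC1 near 30, and no other connexin shown reaches the dashed line at 1 FPKM.

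The level of GJA1 was 6.71 times that of GJC1 in replicate 1 and 6.498 times in replicate 2, a mean ratio of 6.60 ± 0.1504 (SD, n = 2) on the FPKM scale. Neither the values of the 2 libraries nor their counting intervals overlapped between these genes. GJA1 made up 86.7% and 86.4% of the summed FPKM of the measured connexins in replicates 1 and 2 (mean 86.5% ± 0.244, SD, n = 2), and GJC1 made up 12.9% and 13.3% (mean 13.1% ± 0.261). All other connexins in the table together contributed 0.371% and 0.346%. The sum over the measured connexins was 232.8 FPKM in replicate 1 and 229.003 in replicate 2. These are shares of transcript per length of gene model, not of protein.

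GJA4 and GJA5, the members known mainly from blood vessels, were at or near 0. GJA5 (ENSSSCG00000006696) had 0.00872 FPKM in replicate 1 and 0.00952 in replicate 2, which is at least 1 read in each. Its counting intervals ran from 0.000221 to 0.0486 FPKM and from 0.000241 to 0.0530, so the level is known only to lie within these bounds. GJA4, encoding Cx37, was listed at 0 in both libraries (ENSSSCG00000039983). Among the defining markers of endothelium, CDH5, KDR and TIE1 were also listed at 0, TEK had 0.00570 FPKM in replicate 1 and 0 in replicate 2, and EMCN had 0 and 0.0159. PECAM1 was the exception at 1.76 ± 0.231 FPKM (SD, n = 2). The 6 endothelial markers summed to 1.93 and 1.61 FPKM.

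The connexin of liver and myelin, GJB1 (ENSSSCG00000012394), was listed at 0 in both libraries. No list of liver markers was examined, and glial markers are given further below. Of the 6 epithelial markers none was detected: CDH1, VIL1, KRT20 and CDX2 were listed at 0, EPCAM had 0 in replicate 1 and 0.00748 in replicate 2, and KRT8 had 0.0778 ± 0.0106 FPKM (SD, n = 2). These markers summed to 0.0703 and 0.0928 FPKM.

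GJD2, the neuronal connexin (ENSSSCG00000036219), was listed at 0 in both libraries. Among neuron markers ELAVL4 was at 0, SNAP25 and STMN2 were at 0 in replicate 1 and at 0.0172 and 0.0276 FPKM in replicate 2. RET, the receptor of glial cell line-derived neurotrophic factor, was the highest of the 5 at 0.665 ± 0.0171 FPKM (SD, n = 2), and the list summed to 0.710 and 0.733 FPKM. Of the glial markers SOX10 had 0.139 ± 0.00229 and GFAP 0.124 ± 0.00165 FPKM, and the measured list summed to 0.279 and 0.368.

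GJA3, a lens connexin (ENSSSCG00000036798), had 0 in replicate 1 and 0.0543 FPKM in replicate 2, from 2 reads. The 95% Poisson interval of the second library was 0.00658 to 0.196 FPKM, and the upper bound in the first was 0.0917, so the libraries are not told apart. The recovered gene model of 1143 bp fits only once into the annotated span of 1232 bp, so these reads are not a fraction of a larger number if that annotation is the one counted.

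No further connexin was detected among those measured: of 13 other connexins 10 had an identifier, and 0 of 10 reached 1 FPKM. The highest was GJA9, at 0.496 FPKM (at least 3 reads) in replicate 1 and 0.361 (at least 2) in replicate 2. GJA10, known from the retina, had 0.103 and 0.1499 FPKM. The smallest fitting numbers for GJA10 were 3 and 4 reads on a model of 828 bp, and with the annotated span of 1656 bp they become 6 and 8. Its RefSeq model overlaps BACH2 (0.470 ± 0.00964 FPKM, SD, n = 2), so the value of GJA10 is uncertain.

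GJB5, GJB7, GJC3 and GJE1 were listed at 0 in both libraries. GJB6, GJD3 and GJD4 had no identifier with that symbol and were not analysed here.

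In the order of levels GJA1 and GJC1 stood apart from each other and from the rest, GJC1 being 70.6 times the mean of GJA9. That ratio was 60.7 in replicate 1 and 84.3 in replicate 2. It is imprecise, as the smallest fitting reads of GJA9 were 3 and 2. Below GJC1 the order is not resolved. The library values of GJA10 and GJA3 did not overlap, but their counting intervals overlapped in both libraries. GJA3 and GJA5 overlapped in their library values as well.

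**Figure D2:**
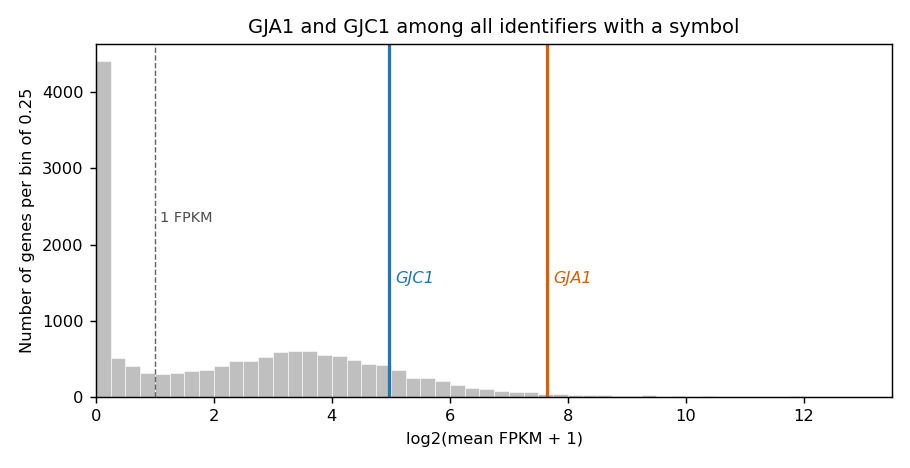
Number of genes (vertical axis) by log2(mean FPKM + 1) (horizontal axis) for the 14857 identifiers with a symbol, means over both libraries. GJC1 (blue line) lies above 87.2% of them and GJA1 (orange line) above 98.8%, in the sparse right tail.

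The question of whether the duplicates differed in any connexin was put with a two-sided exact binomial test of the recovered reads against the library totals, adjusted by Benjamini-Hochberg over 16327 genes. The test compares libraries and no condition. GJA1 differed by -0.03 on the log2 scale (replicate 2 over replicate 1), with an exact p of 0.0359 that became an adjusted p of 0.419. GJC1 differed by 0.02 with an adjusted p of 0.960 in the same exact test. No connexin passed, 0 of the 9 with reads, and 1 of them was under an unadjusted p of 0.05, GJA1. Of all genes with reads, 1.11% passed.

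By the level over these libraries alone, the genes nearest to GJA1 were ISG12(A) (200.8 ± 8.02 FPKM, SD, n = 2) and CDKN2A (199.9 ± 5.49) above it, and H2AZ1 (199.3 ± 7.001) and RPS24 (198.1 ± 5.50) below. Those nearest to GJC1 were HDAC3 (30.3 ± 0.656) and ICMT (30.3 ± 0.0337) above, and CNOT1 (30.2 ± 0.620) and C8orf82 (30.2 ± 0.903) below. None of these differed from its connexin by more than 1 SD of the larger spread. They were picked for closeness of mean, so this adds no evidence of likeness. With 1 group there is no pattern across conditions to compare, and a like level says nothing of a like role.

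Connexins form part of a larger cell contact, and the genes that act with them were examined from lists chosen by known role. Across 6 lists, 86 genes were measured. GJA1 was above 85 of them and below only TUBA1B, and GJC1 was above 60. For reference beside the counts of each list below, 61.5% of all identifiers with a symbol were detected. The median over all identifiers with a symbol was 2.29 on the log2(FPKM + 1) scale.

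Scaffold and cytoskeletal partners were mostly abundant, with 13 of 15 detected and a median of 4.88 on the log2(FPKM + 1) scale. TUBA1B, a tubulin of the microtubules that carry connexins to the membrane, had 969 ± 7.46 FPKM (SD, n = 2). CAV1, the coat protein of caveolae, had 163 ± 1.95, the cortical actin regulator CTTN 138 ± 1.195, the adhesion protein VCL 119 ± 0.859 and the membrane-actin linker EZR 97.9 ± 1.70. TJP1, the scaffold ZO-1 that binds the tail of CX43, had 28.9 and 28.0 FPKM (28.4 ± 0.627) and was singled out after its value was seen. TJP3, an epithelial relative of TJP1, had 0.0363 ± 0.00791 FPKM and OCLN, the tight junction protein occludin, 0.0501 ± 0.0383. Tubulin genes have near-identical copies, so the value of TUBA1B and that of TUBB (3.71 ± 0.417), also named after its value was seen, are uncertain.

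Adhesive junctions commonly form beside gap junctions, and 11 of their 14 measured genes were detected, with a median of 4.72 on the log2(FPKM + 1) scale. CTNNB1, the adaptor beta-catenin, had 192 ± 3.88 FPKM (SD, n = 2), close to the level of GJA1. The adaptor JUP had 94.0 ± 0.552, the mesenchymal cadherin CDH11 74.1 ± 0.458, CTNNA1 58.8 ± 1.46 and CTNND1 58.1 ± 0.780. CDH2, N-cadherin, had 51.1 ± 0.567 FPKM and was named after its value was seen. By contrast CDH1, the epithelial cadherin, and CTNNA3, an alpha-catenin of heart, were listed at 0, and the desmosomal cadherin DSG2 had 0 in replicate 1 and 0.00712 FPKM in replicate 2. NECTIN2 had no identifier with that symbol.

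Of genes for assembly, endocytosis and degradation of connexins, 17 of 18 measured were detected, with a median of 4.60 on the log2(FPKM + 1) scale. The highest were the clathrin adaptor gene AP2M1 (152 ± 2.98 FPKM, SD, n = 2), the autophagy receptor gene SQSTM1 (145 ± 2.30), the clathrin heavy chain gene CLTC (75.6 ± 0.266), the ubiquitin ligase gene SMURF2 (69.6 ± 2.02) and the dynamin gene DNM2 (49.9 ± 0.474). STUB1, a ubiquitin ligase gene active in most cells, was listed at 0 in both libraries, which falls under the same care as the ribosomal genes above.

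All 18 measured kinase and phosphatase genes were detected, with a median of 4.57 on the log2(FPKM + 1) scale. Among the highest were CAMK2D (43.6 ± 1.69 FPKM, SD, n = 2), the protein kinase A gene PRKACA (36.04 ± 0.632), CDK1 (32.6 ± 1.44) and the phosphatase gene PPP2CA (32.5 ± 0.192). The lowest was PRKCD at 3.07 ± 0.204, named after its value was seen. Genes of the scaffold, turnover and kinase lists are expressed in most adherent cells. TSG101 of the previous list and AKT1 had no identifier with that symbol.

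Of the transcription factors known to act at connexin genes, 7 of 11 were detected, beside 61.5% of all identifiers with a symbol. Their median was 1.64 on the log2(FPKM + 1) scale, below that of all symbols. JUN, a subunit of the factor AP-1, had 116 FPKM in replicate 1 and 124 in replicate 2 (120.0 ± 5.08, SD, n = 2). SP3 had 15.9 ± 0.401, SP1 13.9 ± 0.0870, TBX2 11.96 ± 0.0608 and TBX3 3.44 ± 0.114, the last pair being repressors of connexin genes in the heart. The cardiac factors TBX5 and NKX2-5 were at 0 and at 0.00524 and 0.00572 FPKM, which is at least 1 read in each library for NKX2-5. IRX3 had 0.0122 and 0.0266 FPKM, and the oestrogen receptor gene ESR1 was listed at 0.

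Large-pore channels that do not dock into gap junctions were present at lower levels than GJA1, with 8 of 10 detected and a median of 2.22 on the log2(FPKM + 1) scale. LRRC8A, the obligatory subunit of volume-regulated anion channels, had 29.1 ± 1.196 FPKM (SD, n = 2), LRRC8C 13.01 ± 0.0527 and LRRC8D 6.05 ± 0.0653. The pannexin genes PANX2 and PANX1 had 4.73 ± 0.0749 and 3.83 ± 0.0890 FPKM. PANX3, a pannexin of bone and skin, was listed at 0, and CALHM2 had 0.375 ± 0.1496.

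**Figure D3:**
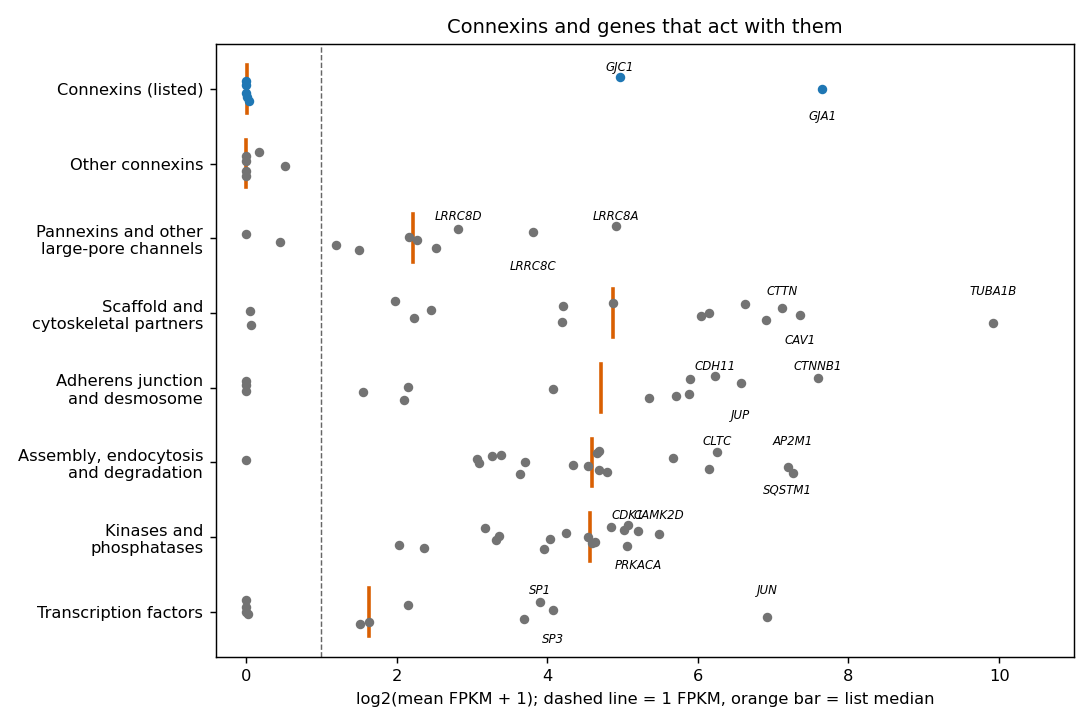
log2(mean FPKM + 1) over both libraries (horizontal axis) of measured genes, by list (vertical axis), with the median over all measured genes of the list as an orange bar and 1 FPKM as a dashed line. GJA1 and GJC1 stand far from the other listed connexins, which gather at 0, and GJA1 lies to the right of every pathway gene shown but TUBA1B.

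The label of smooth muscle was checked against 6 defining markers, of which 5 were detected. ACTA2 had 693 ± 11.8 FPKM (SD, n = 2), ACTG2 479 ± 15.0 and CNN1 254 ± 1.02, whereas TAGLN had 5.46 ± 0.175, DES 2.90 ± 0.231 and MYH11, the smooth muscle myosin heavy chain, 0.491 ± 0.0433. So the actin and calponin genes were abundant, and myosin heavy chain was under the detection level. Of these only ACTA2 and ACTG2 differed between libraries by the exact binomial test (adjusted p of 0.0123 and 6.1e-06). ACTG2 had 489 FPKM in replicate 1 and 468 in replicate 2.

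Other cells that carry GJA1 or GJC1 were checked in the same way. Interstitial cells of Cajal, the pacemaker cells coupled to gut muscle, are marked by KIT and ANO1, which had 0.573 ± 0.135 and 0.792 ± 0.0387 FPKM (SD, n = 2), while ETV1 had 14.3 ± 0.353. Their 3 markers summed to 15.3 and 16.0 FPKM. Mural cell markers were mixed: CSPG4 had 101 ± 2.06, PDGFRB 44.3 ± 1.30 and MCAM 14.5 ± 0.648, ABCC9 was listed at 0, and RGS5 had 0.00511 FPKM in replicate 1 and 0 in the other library. The 5 mural markers summed to 158 and 162 FPKM.

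Fibroblast markers were low, with PDGFRA at 2.24 ± 0.0149 FPKM (SD, n = 2), DCN at 2.20 ± 0.445, LUM at 1.63 ± 0.0280, FAP at 0.156 ± 0.0254 and CD34 at 0 in replicate 1 and 0.00550 in replicate 2, and summed to 6.56 and 5.91. Of the leukocyte markers CD3E and PTPRC stood at 0, CD14 had 2.29 ± 0.0775 and CD68 1.24 ± 0.102, a sum of 3.51 and 3.55. The libraries were made from a single clone and not from tissue. Bulk RNA alone cannot tell few cells of a type from little RNA per cell. What part any of these cells has in the connexin values was not tested.

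**Figure D4:**
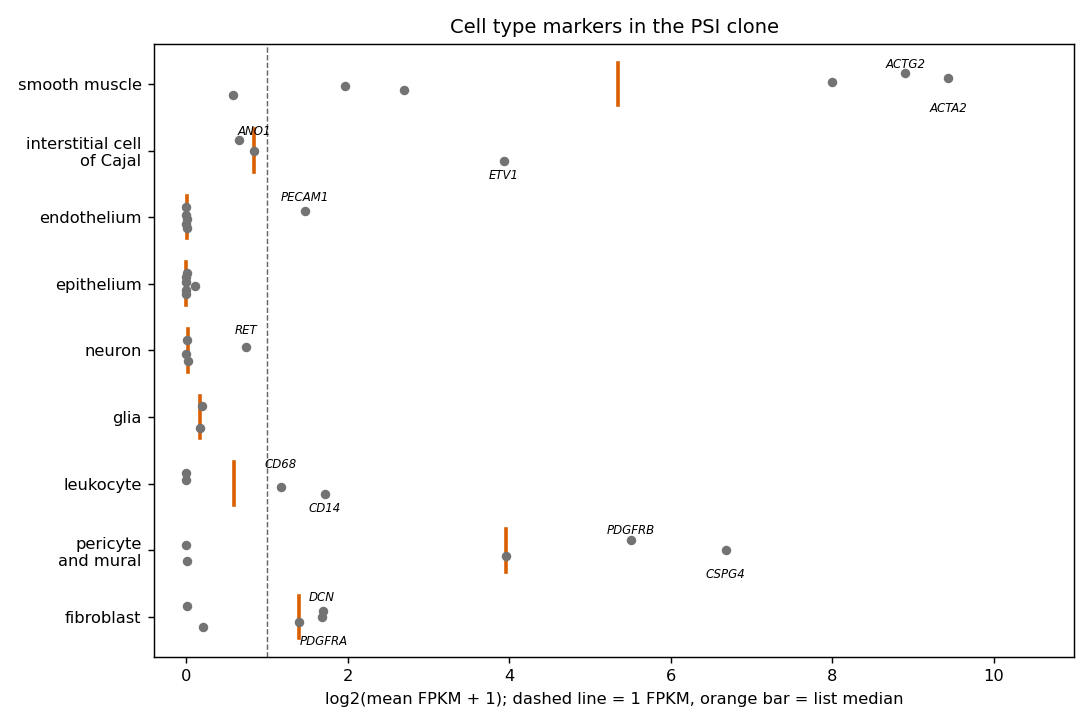
log2(mean FPKM + 1) over both libraries (horizontal axis) of measured markers, by cell type (vertical axis), with the median over all measured markers as an orange bar and 1 FPKM as a dashed line. Smooth muscle actins lie furthest right, and endothelial, epithelial, neuronal and glial markers gather near 0.

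The positions of the members on Sscrofa11.1, which the rule of choice did not use, are given as annotated. Neither GJA1 nor GJC1 had another connexin among its 3 nearest protein-coding genes on either side. GJA4 lies on chromosome 6 from 91045430 to 91048161 and GJA5 on chromosome 4 from 99854129 to 99871288. GJA3 lies with GJB2 and GJB6 within 49.5 kb of chromosome 11, from 750658 to 800109. GJB1, on chromosome X from 57241990 to 57249496, and GJD2, on chromosome 1 from 136310759 to 136328060, stand without another connexin among these neighbours and were also listed at 0. These are descriptions of a few loci, joined to the values by symbol alone.

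Genes next to the detected connexins were not uniformly high. GJA1 has the protein-coding genes HSF2 at 809 kb on one side (8.81 ± 0.976 FPKM, SD, n = 2) and TBC1D32 at 55.7 kb on the other (2.74 ± 0.397), so it had the highest value of its surroundings. All 6 of its neighbours had an identifier, and 5 were detected, PKIB being the exception at 0.157 ± 0.0214. GJC1 lies 2.91 kb from HIGD1B (0.0842 ± 0.0747) and 15.5 kb from ADAM11 (0.269 ± 0.0707), both under 1 FPKM, with EFTUD2, a spliceosome gene, 11.07 kb away at 47.9 ± 0.0513. Of its 5 neighbours with an identifier, 3 were detected.

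Low connexins differed in whether they had detected genes among their neighbours. GJA3 lies 19.6 kb from ZMYM2 (11.98 ± 0.00835 FPKM, SD, n = 2), and beyond GJB6 follows CRYL1, at 93.6 kb from GJA3, with 33.5 ± 3.05. GJA5 lies 59.1 kb from ACP6 (22.2 ± 0.315), and GJB1 lies 12.4 kb from ZMYM3 (5.46 ± 0.0260). Of the neighbours with an identifier, 3 of 3 were detected for GJA3, 2 of 4 for GJA5 and 2 of 5 for GJB1. GJA4 lies 72.2 kb from DLGAP3, a gene of neuronal synapses, which had 0.0447 ± 0.0276 FPKM. Of the 4 neighbours of GJA4 with an identifier, 0 were detected. GJD2 lies 24.2 kb from ACTC1, the cardiac actin gene, which was listed at 0 as well, and 2 of its 5 measured neighbours were detected, AQR (9.35 ± 0.265) and ZNF770 (1.31 ± 0.0245).

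**Figure D5:**
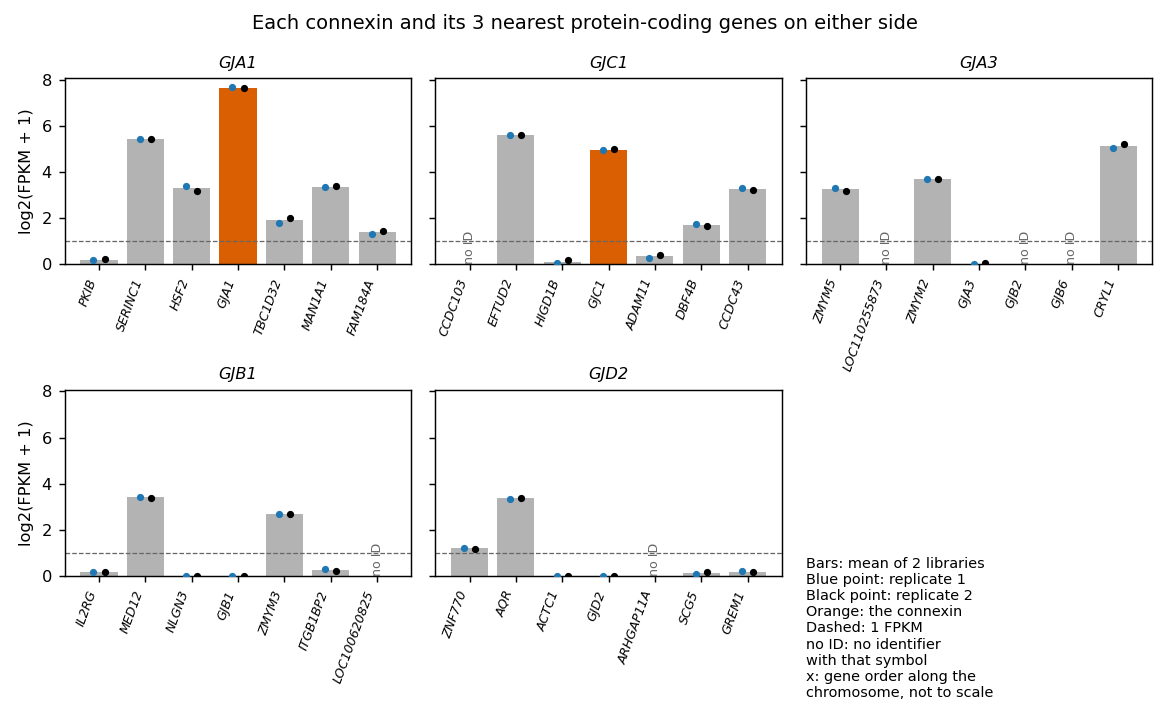
log2(FPKM + 1) (vertical axis) of GJA1, GJC1, GJA3, GJB1 and GJD2 and their 3 nearest protein-coding genes on either side, in gene order along the chromosome and not to scale (horizontal axis). Bars are means and points the 2 libraries. GJA1 is the highest gene of its surroundings, and the genes on either side of GJC1 are near 0. GJA3 and GJB1 are near 0, with detected genes among their neighbours.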

How the data were processed

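Per the labels' protocols, TRIzol was used to extract total RNA and a NEBNext Ultra kit to build libraries. The submitters' processing notes name TopHat2 2.0.12, HTSeq 0.6.1 and the build Sscrofa11.1. The annotation release, strand setting and filters: not given in the sources used here. Values in the authors' deposited file are FPKM, with 1 column per library, not pooled. By default HTSeq leaves out reads that fall in several genes or places, so overlapping or duplicated genes can be listed too low.

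Whole reads were recovered with Python 3.11.15, numpy 2.4.6 and SciPy 1.17.1 from the steps of the FPKM values. For each gene, lengths between 50 and 30000 bp were tried, and the shortest one giving whole reads in both libraries was kept (tolerance 1.2 times the rounding). This held for 100.0% of 16327 genes above 0, and 11 of 13 mitochondrial lengths equalled RefSeq. Recovered reads summed to 90.8% and 90.8% of the totals. The recovery and the binomial test were run on simulated Poisson counts, with short gene models lengthened. That simulation does not cover short models or spread between libraries beyond counting error. Lists were summarised as log2(FPKM + 1), with a pseudocount of 1. Symbols came from a gene name table and positions from RefSeq, joined by symbol.

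The members, lists and calls were chosen with earlier results of these data known. Named genes are every connexin and cell type marker, and in each other list the 5 highest and those under 1 FPKM in either library. Genes near a level were the 2 above and the 2 below. Some of these are not reported here. Alternatives changed detection level, scaling, pseudocount, family, read filter and expected ratio, and left out each library.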

Additional observations from a re-analysis of the deposited data

How the results depend on the processing

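GJA1 and GJC1 were the measured connexins detected at levels of 0.5 and 5 FPKM, as TPM and in each library alone, 2 in every case. At 0.1 FPKM the measured connexins counted 5, and the listed members still 2. As TPM, the mean levels read 543 for GJA1 and 82.2 for GJC1, a change of unit that left their ratio at 6.60. Without 1 library, GJA1 ranged from 197.8 to 201.8 FPKM, GJC1 from 30.1 to 30.4, their ratio from 6.498 to 6.71 and the share of GJA1 from 86.4% to 86.7%. Over the listed members alone that share was 86.8%. The libraries differed at 182 genes, at 220 with at least 10 reads and at 184 with the median ratio, and GJA1 passed in none (adjusted p of 0.349 and 0.242 by the exact test). At 5 FPKM, 3 large-pore channel genes and 4 transcription factor genes were detected. With a pseudocount of 0.1 the list medians, on another log2 scale, were 1.91 for large-pore channels, 4.83 for scaffolds, 4.66 for adhesive junctions, 4.54 for turnover, 4.51 for kinases, 1.148 for transcription factors and 2.0001 for all symbols, which stood at 3.29 among genes of 0.1 FPKM or more with the pseudocount of 1. No paired analysis was possible because the design holds 1 group. For genes listed at 0 no length could be recovered, so no upper limit is given.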
